A study of Mus musculus with 6 samples.

Results

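The Hox cluster genes are the 39 mouse genes whose symbol is Hoxa, Hoxb, Hoxc or Hoxd followed by a number, and they were taken by symbol from a table of 23420 genes. The table holds read counts of total RNA, depleted of ribosomal RNA, from eEnd2 cells, a mouse embryonic endothelial cell (EC) line, of which 3 cultures (A, B and C) expressed β1-WT-GFP and 3 cultures expressed β1-K794Q-GFP. Both groups carried the mouse's own integrin genes and, in addition, a human Integrin-β1A chimera with GFP in its extracellular part after K107, stably expressed from a short human β-actin promoter joined to a matrix attachment region, and the groups differed in residue Lys794, which was intact in β1-WT-GFP and changed to glutamine, a mimic of acetylated lysine, in β1-K794Q-GFP. All cells were nucleofected, sorted by FACS as GFP-positive populations rather than picked as clones, and lysed untreated at confluence. Each construct had its own transfected and sorted cells, so the residue and the history of transfection and sorting cannot be told apart. The labels speak of populations with low and high GFP without saying which one each culture came from, so the GFP population and the culture cannot be told apart, and the p values measure only the spread between these cultures.

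Hox genes encode homeodomain transcription factors that give cells along the head-to-tail axis their positional identity. They lie in the clusters HoxA, HoxB, HoxC and HoxD, and genes of the same number in different clusters, called paralogs, descend from one ancestral gene. Within a cluster, genes with low numbers are generally switched on earlier and further forward in the embryo than genes with high numbers, and Polycomb and Trithorax proteins keep the resulting pattern of silent and active genes through later cell divisions. In EC, Hox genes keep a record of the embryonic region of origin, and several of them have been tied to vessel growth or quiescence.

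In the mouse genome (GRCm38, the sequence also called mm10, with GENCODE M21 genes), the 11 HoxA genes lie at chr6:52155590-52260880 on the minus strand. The 10 HoxB genes lie at chr11:96194316-96368256, the 9 HoxC genes at chr15:102921103-103036852 and the 9 HoxD genes at chr2:74668310-74765142, all on the plus strand. The promoters below, from RefSeq with the build GRCm38.p6, are those of Hoxd8, Hoxd9 and Hoxd10, neighbours in HoxD, and Hoxa10 in HoxA, shown because these genes were high in cultures A and C of the mutant and low or at 0 in its culture B, a choice made after the values had been seen. Each runs from 250 bases before to 50 bases after an annotated start, 5′ to 3′ on the strand of the gene, and capitals mark CG dinucleotides, the sites at which DNA is methylated in mammals. They lie at chr2:74704365-74704664 (Hoxd8, plus strand), chr2:74697513-74697812 (Hoxd9, plus strand), chr2:74691641-74691940 (Hoxd10, plus strand) and, for 2 annotated starts of Hoxa10, at chr6:52234890-52235189 and chr6:52240805-52241104 (minus strand).
Hoxd8: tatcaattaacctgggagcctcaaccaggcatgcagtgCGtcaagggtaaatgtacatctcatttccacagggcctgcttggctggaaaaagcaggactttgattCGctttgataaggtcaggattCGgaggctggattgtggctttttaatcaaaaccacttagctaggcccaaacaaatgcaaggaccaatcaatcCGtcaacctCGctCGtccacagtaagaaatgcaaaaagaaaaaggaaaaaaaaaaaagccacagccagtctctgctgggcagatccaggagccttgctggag
Hoxd9: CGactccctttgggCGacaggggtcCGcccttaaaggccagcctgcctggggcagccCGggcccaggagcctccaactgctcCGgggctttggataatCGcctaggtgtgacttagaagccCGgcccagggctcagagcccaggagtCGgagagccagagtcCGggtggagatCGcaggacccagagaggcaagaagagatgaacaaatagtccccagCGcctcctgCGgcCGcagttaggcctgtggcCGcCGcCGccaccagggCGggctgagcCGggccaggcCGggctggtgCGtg
Hoxd10: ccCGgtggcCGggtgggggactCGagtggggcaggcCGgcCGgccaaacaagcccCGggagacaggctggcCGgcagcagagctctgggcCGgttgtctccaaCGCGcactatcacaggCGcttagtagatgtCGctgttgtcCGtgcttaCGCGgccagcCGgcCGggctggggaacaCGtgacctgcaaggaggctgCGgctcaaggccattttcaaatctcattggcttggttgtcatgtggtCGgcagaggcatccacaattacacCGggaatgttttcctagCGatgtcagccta
Hoxa10, first start: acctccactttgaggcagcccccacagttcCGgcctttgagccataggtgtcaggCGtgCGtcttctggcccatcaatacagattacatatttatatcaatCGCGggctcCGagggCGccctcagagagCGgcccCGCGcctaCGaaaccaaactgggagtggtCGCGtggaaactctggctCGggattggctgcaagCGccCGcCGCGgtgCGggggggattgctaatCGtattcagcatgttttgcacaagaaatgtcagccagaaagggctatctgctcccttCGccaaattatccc
Hoxa10, second start: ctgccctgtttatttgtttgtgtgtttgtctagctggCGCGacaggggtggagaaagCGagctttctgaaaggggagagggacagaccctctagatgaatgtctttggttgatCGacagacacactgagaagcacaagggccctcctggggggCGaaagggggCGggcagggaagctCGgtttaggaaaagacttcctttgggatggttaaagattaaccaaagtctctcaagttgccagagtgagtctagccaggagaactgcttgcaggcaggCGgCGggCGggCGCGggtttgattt

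The RefSeq table held 24 promoters of 22 Hox genes. The median number of CG dinucleotides was 14.5 per 300 bases in these 24, against 7 in all 32851 promoters. Hoxd8 had 6, Hoxd9 had 20, Hoxd10 had 22, and the 2 promoters of Hoxa10 had 21 and 12. Short motifs were searched on both strands. TATAAA and CCAAT are common elements of promoters, TGATNNAT is the form bound by a HOX protein beside a TALE cofactor, and the last, TTTATNG, is a form bound by HOX proteins of high paralog number. CCAAT was present in 15 of the 24 Hox promoters, or 62.5%, against 37.4% of all promoters. TATAAA was present in 4 of 24 against 13.6% of all, TGATNNAT in 4 of 24 against 8.85%, and TTTATNG in 2 of 24 against 10.9%. Among the printed promoters, those of Hoxd8 and Hoxd10 and the first of Hoxa10 each held 1 CCAAT, the first of Hoxa10 also held 1 TATAAA, and none held TGATNNAT or TTTATNG. These matches describe letters in a window and say nothing of binding.

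The deposited total was between 9589826 and 15287191 counts per culture, and a count of 0 was read as at most 3 counts, which corresponded to between 0.209 and 0.30 CPM (normalized counts scaled to a common library size, adjusted by TMM). These limits and the intervals below cover counting error only. All 19 endothelial markers passed the filter on low counts over the 6 cultures, with summed levels of 9851 to 18268 CPM in β1-K794Q-GFP cultures and 10775 to 13128 CPM in β1-WT-GFP cultures. Among them, Cldn5, which encodes a tight junction protein, was at 17.5, 0 and 24.3 CPM in β1-K794Q-GFP cells (cultures A, B, C) and at 267, 252 and 4.74 CPM in β1-WT-GFP cells (cultures A, B, C). Sox17, an endothelial transcription factor, was at 3 counts in β1-K794Q-GFP culture B, and Vwf, the von Willebrand factor gene, at 3 counts in β1-WT-GFP culture A. Of 16 mesenchymal markers, 7 had no count in any culture (Prrx2, Twist1, Twist2, Thy1, Dcn, Lum and Postn), and the summed level of the whole list was 3.78 to 5.30 CPM in β1-K794Q-GFP cultures against 87.3 to 197 CPM in β1-WT-GFP cultures. That difference was carried mainly by Prrx1, a mesenchymal homeobox gene, which was at 0.0963, 0.0987 and 0 CPM in β1-K794Q-GFP cells (cultures A, B, C) and at 183, 194 and 56.5 CPM in β1-WT-GFP cells (cultures A, B, C). Of 8 blood cell markers, 5 had no count. The part that Prrx1-expressing cells might have in the Hox values was not tested, and in bulk RNA fewer cells of a type and less RNA per cell cannot be told apart.

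Of the 39 Hox genes, 14 had no count in any culture, 17 stayed at 3 counts or fewer in every culture, and 12 exceeded 3 counts in every culture. The expressed genes lay in HoxA, HoxB and HoxD, and HoxC was at or near 0: of its 9 genes, 8 had no count and Hoxc6 had 2 counts in β1-K794Q-GFP culture A alone. In the β1-WT-GFP cultures, genes over 3 counts reached up to Hoxa9 in HoxA and ran from Hoxd3 to Hoxd8 or Hoxd9, and within HoxB from Hoxb2 or Hoxb3 to Hoxb8 or Hoxb9. The filter on low counts kept 18 Hox genes for testing (7 of HoxA, Hoxb2 to Hoxb8 in HoxB, and Hoxd3, Hoxd4, Hoxd8 and Hoxd9) and left out 21, among them Hoxa9, Hoxa10, Hoxb9 and Hoxd10, which exceeded 3 counts in some cultures.

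**Figure D1:**
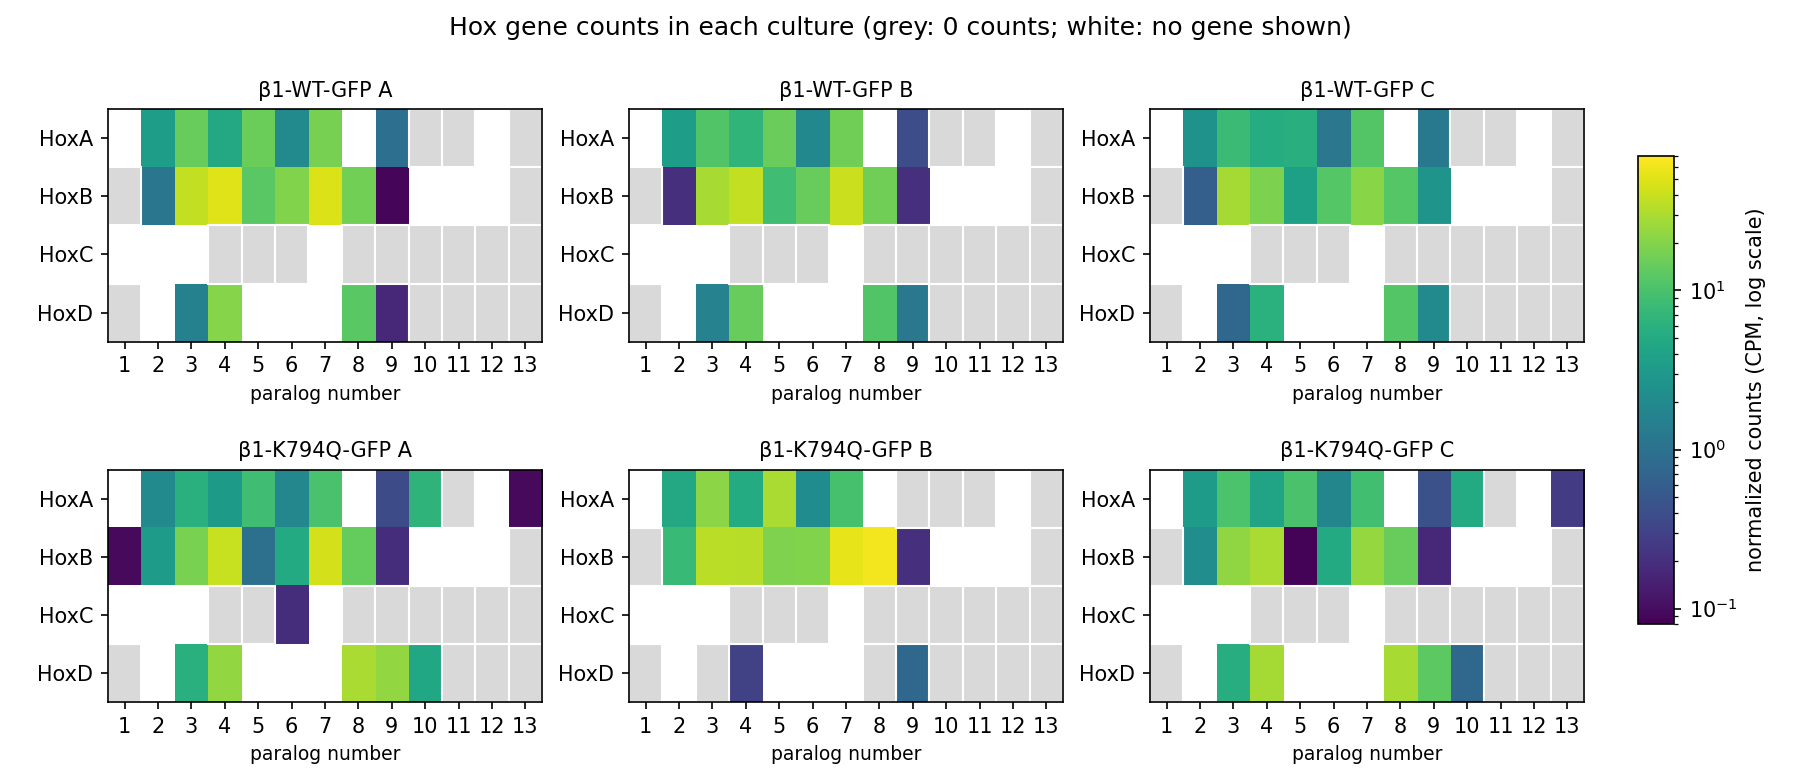
Each panel is 1 culture, with Hox clusters as rows, paralog number as columns and colour for normalized counts (CPM, log scale). Grey cells are genes at 0 counts and white cells are places for which no gene is shown. The HoxD row is nearly empty in β1-K794Q-GFP culture B, whereas cultures A and C of that group hold Hoxa10 and Hoxd10, which are at 0 in all 3 β1-WT-GFP cultures.

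Per kilobase of exon, the levels of Hox genes in β1-WT-GFP cells were led by Hoxb7 at 24.1 ± 9.40 CPM per kb (SD, n = 3) and Hoxb4 at 13.8 ± 6.20 CPM per kb (SD, n = 3). Hoxb6 followed at 7.76 ± 2.03 and Hoxb3 at 7.38 ± 1.21 CPM per kb, and each of these genes differed from the next by less than the sum of their SDs. In β1-K794Q-GFP cells the order of the levels began with Hoxb7 at 26.6 ± 10.2 and Hoxb4 at 13.4 ± 2.12 CPM per kb (SD, n = 3), followed by Hoxb8 at 11.5 ± 10.7 CPM per kb, a spread nearly as large as its mean. Hoxb7 and Hoxb4 thus had the highest mean levels in both groups. The lengths are those of GENCODE M21 exons, and the annotation used for counting is not given, so the order may depend on this choice. Together the 39 genes accounted for 0.0147% to 0.0293% of each culture's total, and their summed level was 253, 308 and 219 CPM in β1-K794Q-GFP cells (cultures A, B, C) against 280, 232 and 156 CPM in β1-WT-GFP cultures.

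Hox genes were compared between β1-K794Q-GFP and β1-WT-GFP cells with edgeR's quasi-likelihood F-test, fitted on all 11608 genes that passed the filter, and called at a fold change of at least 2 with an unadjusted p of at most 0.05. Of the 18 tested Hox genes, 2 were called (11.1%), against 603 of all tested genes (5.19%). Hoxb2 and Hoxd9 were both higher in β1-K794Q-GFP cells, the direction of 3.48% of all tested genes, and no Hox gene was called lower, the direction of 1.71%. Hoxb2 passed the filter mainly through the mutant cultures, in which it was high, so nothing is read from the share of Hox genes called. At a Benjamini-Hochberg adjusted p of at most 0.05 in edgeR, 0 Hox genes passed, against 21 of all tested genes (0.181%). Before adjustment, 3 of the 18 were at or below 0.05 in edgeR, against 10.2% of all tested genes. DESeq2 passed 1 Hox gene (Hoxb2) at the adjusted threshold. The share of all genes that DESeq2 passed there is not given, so nothing is read from that pass. The cultures of the groups did not overlap for 2 of the 18 Hox genes, Hoxb2 and Hoxa7, which is 11.1% against 16.6% of all tested genes. The median log2 fold change of the 18 was 0.16, against −0.02 over all tested genes.

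Within groups, the Hox genes separated β1-K794Q-GFP culture B from the cultures A and C. Of the 18 tested Hox genes, 12 (66.7%) were at least 2-fold apart between β1-K794Q-GFP cultures A and B, against 18.3% of all tested genes, and 12 were between cultures B and C, against 23.3%. Between cultures A and C of that group, 1 Hox gene (Hoxb5) was 2-fold apart, against 8.8% of all tested genes. In β1-WT-GFP cells, 2 were 2-fold apart between cultures A and B, against 1.27% of all tested genes, 6 between A and C, against 24.8%, and 6 between B and C, against 23.5%. Over all tested genes, β1-WT-GFP cultures A and B were thus far closer than any other pair. The SDs and p values treat them as independent cultures, and whether they were is not known. In both pairs with β1-K794Q-GFP culture B, the genes lower in that culture were Hoxd3, Hoxd4, Hoxd8 and Hoxd9, and the genes higher in it lay in HoxA and HoxB. This comparison of cultures was chosen after the values had been seen and carries no test.

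HoxD was high in cultures A and C of the mutant and near 0 in culture B. The summed level of its 9 genes was 86.5, 1.09 and 75.9 CPM in β1-K794Q-GFP cells (cultures A, B, C), and 34.5, 28.4 and 20.3 CPM in β1-WT-GFP cells (cultures A, B, C). Cultures A and C of the mutant were thus above every β1-WT-GFP culture, and culture B was below every one. As a share of all Hox counts of a culture, HoxD took 34.2% (95% exact binomial interval 32.4% to 36.0%) and 34.7% (32.9% to 36.6%) in β1-K794Q-GFP cells (cultures A and C). It took 0.353% (0.176% to 0.630%) in culture B of that group, and between 12.3% and 13.04% in the β1-WT-GFP cultures.

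Hoxd8, which lies in the middle of the cluster, was at 29.5, 0 and 29.2 CPM in β1-K794Q-GFP cells (cultures A, B, C). It was at 12.3, 11.2 and 11.4 CPM in β1-WT-GFP cells (cultures A, B, C). The β1-WT-GFP cultures lay close together, and the mutant cultures lay on both sides of them: culture B was at least 37.8-fold lower than the lowest β1-WT-GFP culture, computed against the limit of 3 counts in its library. The log2 fold change came to 0.75 ± 1.34 (SE, edgeR adjusted p = 0.918). Without β1-K794Q-GFP culture B it was 1.34 ± 0.18 (SE, edgeR adjusted p = 0.0502), and the gene was then called higher. Culture B had been singled out by its Hox values, Hoxd8 among them. Nothing is therefore read from this call, or from the other values given below for the fit without culture B.

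Hoxd9, a paralog of the group linked to limb and trunk patterning, was at 23.4, 0.790 and 12.7 CPM in β1-K794Q-GFP cells (cultures A, B, C). In β1-WT-GFP cells (cultures A, B, C) it was at 0.175, 1.20 and 2.02 CPM, so culture B of the mutant fell within the β1-WT-GFP range while A and C were above it. The log2 fold change came to 3.41 ± 1.27 (SE, edgeR adjusted p = 0.423). The call rested on the set of cultures: it was made in 2 of 6 fits that left out 1 culture, when culture B of the mutant was omitted (3.96) and when culture C of β1-WT-GFP cells was omitted (4.18), and over the 6 fits the log2 fold change ran from 2.56 to 4.18. With culture letter as a replicate block it was not called (log2 fold change 2.80, edgeR adjusted p = 0.725).

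Hoxd10, the neighbour of Hoxd9, was at 4.53, 0 and 0.774 CPM in β1-K794Q-GFP cells (cultures A, B, C), which are 47, 0 and 9 counts, and was at 0 counts in the 3 β1-WT-GFP cultures. Hoxa10, its paralog in HoxA and a gene known for roles in blood cell and uterine development, was at 6.55, 0 and 5.07 CPM, which are 68, 0 and 59 counts, and was at 0 counts there too. Both genes thus appeared in cultures A and C of the mutant and not in culture B. Against the largest limit that 3 counts per β1-WT-GFP library allow, Hoxa10 was at least 21.8-fold higher in culture A and at least 16.9-fold higher in culture C, and Hoxd10 at least 15.1-fold and at least 2.58-fold higher. Neither passed the filter on low counts with all 6 cultures. When no filter was applied both were called higher. Hoxa10 passed the filter in 4 of the 6 fits that left out 1 culture and was called in 2 of them, but it could pass only through the mutant cultures in which it was high, so these calls support nothing.

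Hoxd3 and Hoxd4, at the other end of the expressed stretch, were likewise at or near 0 in culture B of the mutant. Hoxd4 was at 23.1, 0.296 and 27.8 CPM in β1-K794Q-GFP cells (cultures A, B, C) and at 20.4, 14.4 and 6.13 CPM in β1-WT-GFP cultures, a log2 fold change of 0.33 ± 1.19 (SE, edgeR adjusted p = 0.965). Hoxd3 was at 5.97, 0 and 5.50 CPM in β1-K794Q-GFP cells (cultures A, B, C) and at 1.57, 1.60 and 0.766 CPM in β1-WT-GFP cultures. Its log2 fold change was 1.54 ± 1.28 (SE, edgeR adjusted p = 0.784), and without β1-K794Q-GFP culture B it was 2.14 ± 0.44 (SE, edgeR adjusted p = 0.109). As for Hoxd8, nothing is read from the fit without culture B. Exons of other genes overlap 62.8% of the exon length of Hoxd3 and 52.3% of that of Hoxd4, each counting the other among them, so reads may have been shared or lost between them, whereas Hoxd8 and Hoxd9 overlap no other exon. Hoxd1, Hoxd11, Hoxd12 and Hoxd13 had no count in any culture.

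**Figure D2:**
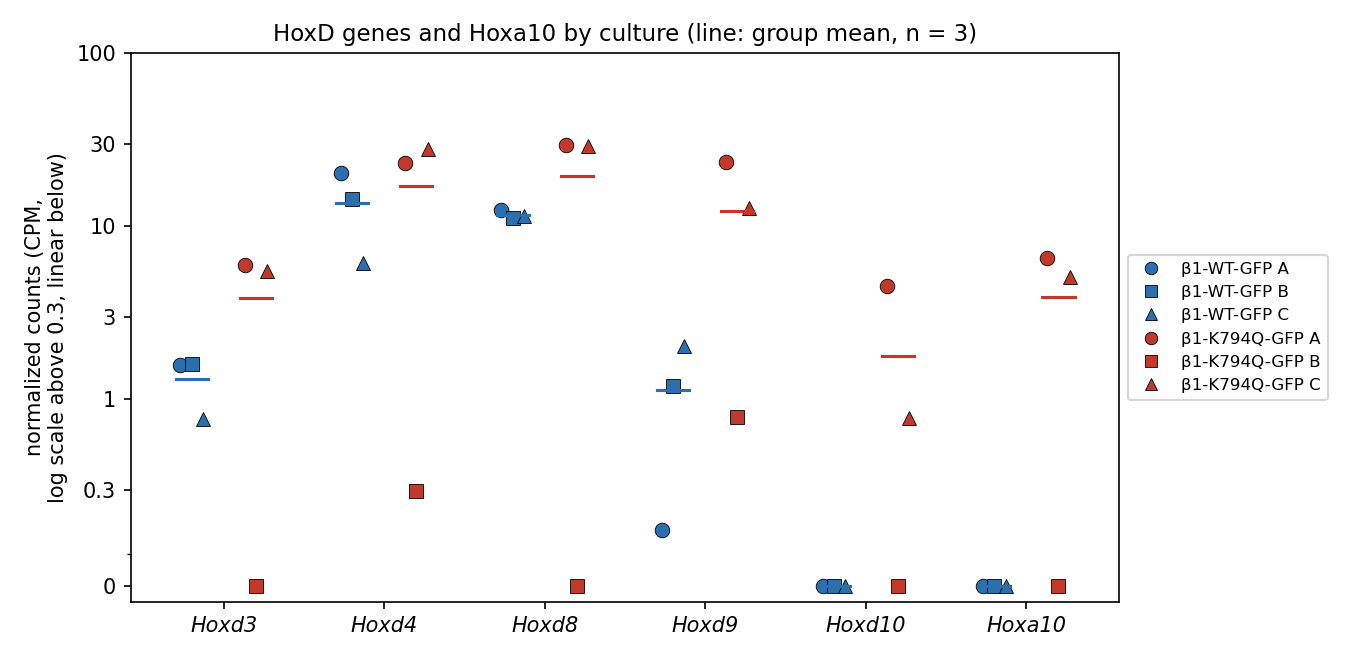
Normalized counts (CPM, log scale above 0.3 and linear below) of the expressed HoxD genes and Hoxa10, with 1 point per culture and a line at the group mean (n = 3). Culture B of the β1-K794Q-GFP group sits at or near 0 for Hoxd3, Hoxd4, Hoxd8, Hoxd10 and Hoxa10, and cultures A and C sit above all β1-WT-GFP cultures for all 6 genes.

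HoxB held Hoxb2, the 1 Hox gene whose call was made whichever of the 6 cultures was omitted. Hoxb2, a gene of hindbrain patterning, was at 3.37, 7.90 and 2.24 CPM in β1-K794Q-GFP cells (cultures A, B, C), and at 1.14, 0.200 and 0.627 CPM in β1-WT-GFP cells (cultures A, B, C). Every mutant culture was above every β1-WT-GFP culture. The log2 fold change came to 2.75 ± 0.77 (SE, edgeR adjusted p = 0.270), and DESeq2 gave 2.77 with an adjusted p of 0.0292. Over those 6 fits, each without 1 culture, the log2 fold change ran from 2.07 to 3.37. The values are low, between 2 and 80 counts per culture, and exons of another transcript, Hoxb3os, overlap 27.3% of the exon length of Hoxb2. In β1-WT-GFP cells (cultures A, B, C) Hoxb2 had 13, 2 and 9 counts. It thus passed the filter on low counts mainly through the mutant cultures, in which it was high. The repeated calls and the DESeq2 result are therefore not read as support.

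Hoxb5, Hoxb6 and Hoxb8, of the middle of the cluster, were higher in culture B than in cultures A and C of the mutant. Hoxb5 was at 0.963, 19.0 and 0.0860 CPM in β1-K794Q-GFP cells (cultures A, B, C) and at 12.4, 8.70 and 3.76 CPM in β1-WT-GFP cultures, so the mutant cultures lay on both sides of the β1-WT-GFP cultures, in the opposite order to Hoxd8. Its log2 fold change was −0.31 ± 1.46 (SE, edgeR adjusted p = 0.971), and without β1-K794Q-GFP culture B it was −3.97 ± 1.04 (SE, edgeR adjusted p = 0.181). Hoxb6 was at 5.01, 19.3 and 4.99 CPM in the mutant and at 19.5, 14.6 and 11.6 CPM in β1-WT-GFP cultures. Its log2 fold change was −0.64 ± 0.60 (SE, edgeR adjusted p = 0.818), and without culture B of the mutant −1.60 ± 0.31 (SE, edgeR adjusted p = 0.0983). Since culture B had been singled out by its Hox values, nothing is read for Hoxb5 or Hoxb6 from the fit without it. Hoxb8, a gene also expressed in blood progenitors, was at 14.0, 63.0 and 14.4 CPM in the mutant and at 16.7, 16.3 and 11.8 CPM in β1-WT-GFP cultures, so that culture B of the mutant alone stood apart. The log2 fold change of Hoxb8 came to 1.03 ± 0.63 (SE, edgeR adjusted p = 0.693).

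Hoxb7 and Hoxb4, the highest Hox genes per kilobase, overlapped between the groups. Hoxb7 was at 45.4, 54.2 and 23.7 CPM in β1-K794Q-GFP cells (cultures A, B, C) and at 49.5, 41.1 and 21.2 CPM in β1-WT-GFP cultures, a log2 fold change of 0.14 ± 0.42 (SE, edgeR adjusted p = 0.956). Hoxb4, a gene known for its part in blood stem cells, was at 40.1, 33.6 and 29.2 CPM in the mutant and at 49.9, 37.7 and 18.3 CPM in β1-WT-GFP cultures, a log2 fold change of −0.04 ± 0.37 (SE, edgeR adjusted p = 0.982). For both genes the spread within the groups exceeded the difference between them. Hoxb3 had a log2 fold change of −0.31, and exons of Hoxb3os overlap 52.9% of its exon length. Hoxb9 exceeded 3 counts in β1-WT-GFP culture C alone, with 38 counts, Hoxb1 had 1 count in all, and Hoxb13 had none. The summed level of HoxB was 127, 232 and 97.7 CPM in β1-K794Q-GFP cells (cultures A, B, C) against 187, 148 and 98.0 CPM in β1-WT-GFP cultures, ranges that overlap.

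**Figure D3:**
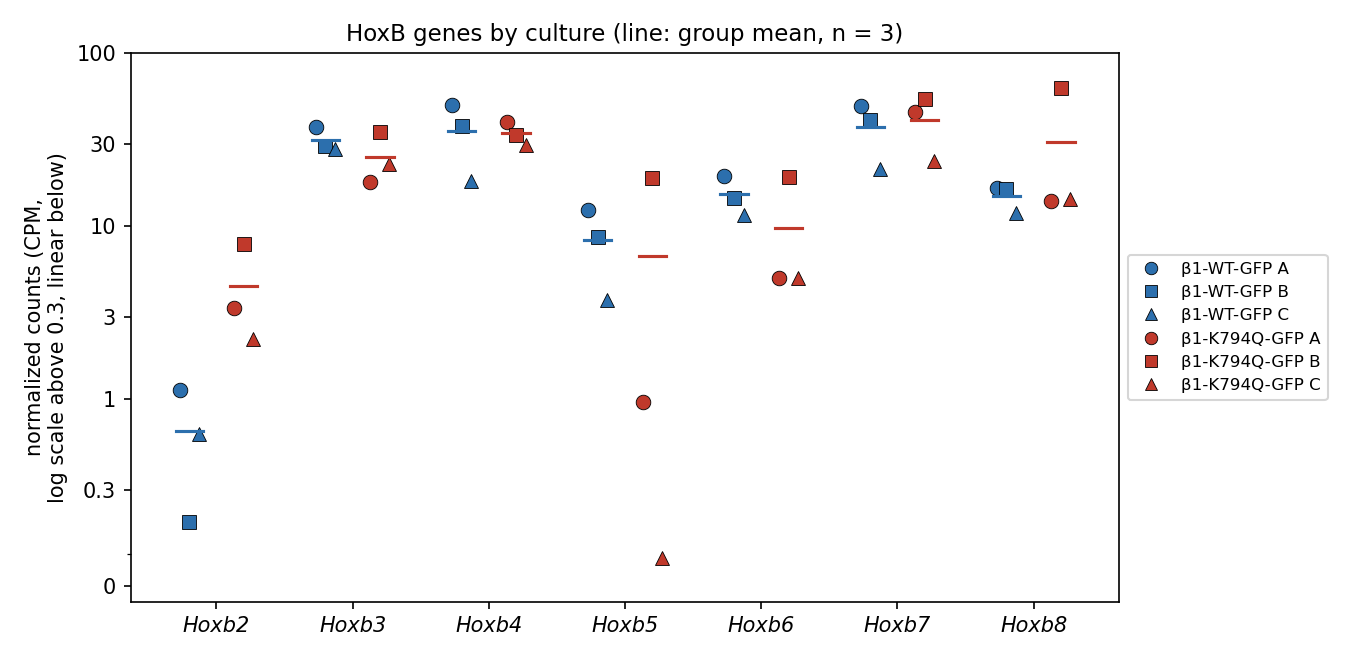
Normalized counts (CPM, log scale above 0.3 and linear below) of the HoxB genes that were tested, with 1 point per culture and a line at the group mean (n = 3). Hoxb2 is the gene in which the groups do not overlap, and among the β1-K794Q-GFP cultures every gene shown other than Hoxb4 is highest in culture B.

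In HoxA, 0 of the 7 tested genes were called by edgeR, and Hoxa7 was the 1 gene at or below a p of 0.05 before adjustment. Hoxa7 was at 10.0, 9.77 and 9.12 CPM in β1-K794Q-GFP cells (cultures A, B, C) and at 17.5, 16.1 and 11.5 CPM in β1-WT-GFP cultures, with every mutant culture below every β1-WT-GFP culture. The log2 fold change came to −0.64 ± 0.24 (SE, edgeR adjusted p = 0.431), below the fold of 2. It ran from −0.79 to −0.52 in the 6 fits that left out 1 culture. Its sign was kept there because the groups do not overlap, which adds no support. Exons of Hoxaas3 (named 2700086A05Rik in the table) overlap 20.4% of the exon length of Hoxa7. Hoxaas3 itself had 0, 2 and 1 counts in the mutant and 0, 1 and 1 in β1-WT-GFP cells (cultures A, B, C). Mira, a noncoding transcript at chr6:52214491-52215288 in RefSeq, within the GENCODE span of Hoxa7 (chr6:52214491-52221854), was at 8.38, 7.20 and 6.71 CPM in the mutant and at 17.4, 13.2 and 9.47 CPM in β1-WT-GFP cultures. Hoxa7 and Mira were counted separately. Since the annotation and strand setting of the counting are not given, it is not known whether reads of 1 were assigned to the other. Reads of Hoxa7 in the stretch shared with Hoxaas3 may have been lost. Hoxa5, a gene described as a keeper of EC quiescence, was at 8.67, 29.7 and 9.89 CPM in β1-K794Q-GFP cells (cultures A, B, C) and at 15.1, 14.8 and 5.71 CPM in β1-WT-GFP cultures, again with culture B of the mutant highest. Hoxa3, a gene of pharyngeal development, was at 5.87, 21.5 and 10.4 CPM in the mutant and at 14.3, 11.2 and 8.08 CPM in β1-WT-GFP cultures. Hoxa2, Hoxa4 and Hoxa6 had log2 fold changes between −0.44 (Hoxa4) and 0.19 (Hoxa6). Hoxa9 was at 18 counts or fewer in every culture, Hoxa13 at 3 or fewer, and Hoxa11 had none. The summed level of HoxA was 39.3, 74.6 and 45.1 CPM in β1-K794Q-GFP cells (cultures A, B, C) against 59.3, 55.5 and 37.7 CPM in β1-WT-GFP cultures.

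**Figure D4:**
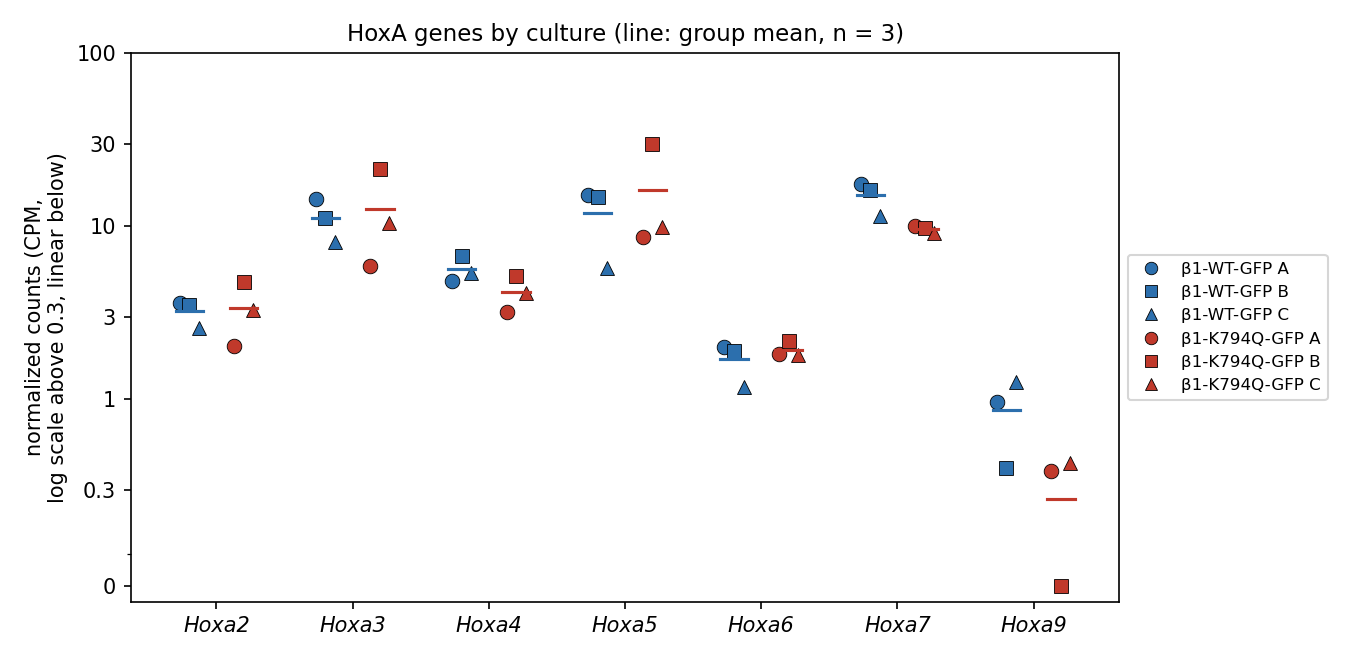
Normalized counts (CPM, log scale above 0.3 and linear below) of the HoxA genes from Hoxa2 to Hoxa9, with 1 point per culture and a line at the group mean (n = 3). The groups overlap for every gene shown other than Hoxa7, and Hoxa2, Hoxa3, Hoxa5 and Hoxa6 are highest of all 6 cultures in β1-K794Q-GFP culture B.

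Read by paralog number, the anterior genes (paralogs 1 to 4) summed to 102, 110 and 106 CPM in the mutant cultures, and spread from 71.8 to 134 CPM in β1-WT-GFP cultures. The posterior genes (paralogs 9 to 13) summed to 35.1, 0.987 and 19.4 CPM in β1-K794Q-GFP cells (cultures A, B, C) against 1.22, 1.80 and 5.92 CPM in β1-WT-GFP cultures. Cultures A and C of the mutant were above all β1-WT-GFP cultures. Culture B had the lowest value, but only by a few counts, which counting error can cover. It held 8 counts of Hoxd9 and 2 of Hoxb9. In β1-WT-GFP culture A there were 11 counts of Hoxa9, 2 of Hoxd9 and 1 of Hoxb9. Of the 16 genes in that class 10 had no count anywhere. In cultures A and C of the mutant the sum was mainly Hoxd9, Hoxa10 and Hoxd10. In β1-WT-GFP culture A it was mainly Hoxa9, at 0.962 CPM, and in culture B mainly Hoxd9, at 1.20 CPM against 0.400 CPM for Hoxa9. In β1-WT-GFP culture C it was Hoxb9 at 2.65, Hoxd9 at 2.02 and Hoxa9 at 1.25 CPM.

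Because β1-K794Q-GFP culture B stood apart, the comparison was also read without it, as 1 of the 6 fits that each left out 1 culture. Of 20 Hox genes that then passed the filter, 7 (35%) were called, against 7.95% of all genes tested in that fit. Culture B had been singled out by its Hox values, and Hoxa10 passed the filter only through the mutant cultures in which it was high. Nothing is therefore read from that share or from the calls of single genes in that fit. Hoxa10, Hoxb2, Hoxd3, Hoxd8 and Hoxd9 were higher and Hoxb5 and Hoxb6 were lower in β1-K794Q-GFP cells. None of the 7 passed an adjusted p of 0.05 in edgeR, where their adjusted p ran from 0.0502 to 0.287. The other 5 fits called 1 or 2 Hox genes each. Culture B also differed outside the clusters. Of all tested genes, 18.3% were at least 2-fold apart between it and culture A, and 23.3% between it and culture C. Endothelial markers went both ways there. Cdh5, the gene of VE-cadherin, was at 1409, 3994 and 1294 CPM in β1-K794Q-GFP cells (cultures A, B, C). In β1-WT-GFP cells (cultures A, B, C) it was at 1338, 1564 and 2227 CPM. Flt1, a VEGF receptor gene, was at 142, 31.3 and 457 CPM in the mutant, and Sox17 at 97.6, 0.296 and 205 CPM. The part of these differences in the Hox values was not tested.

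**Figure D5:**
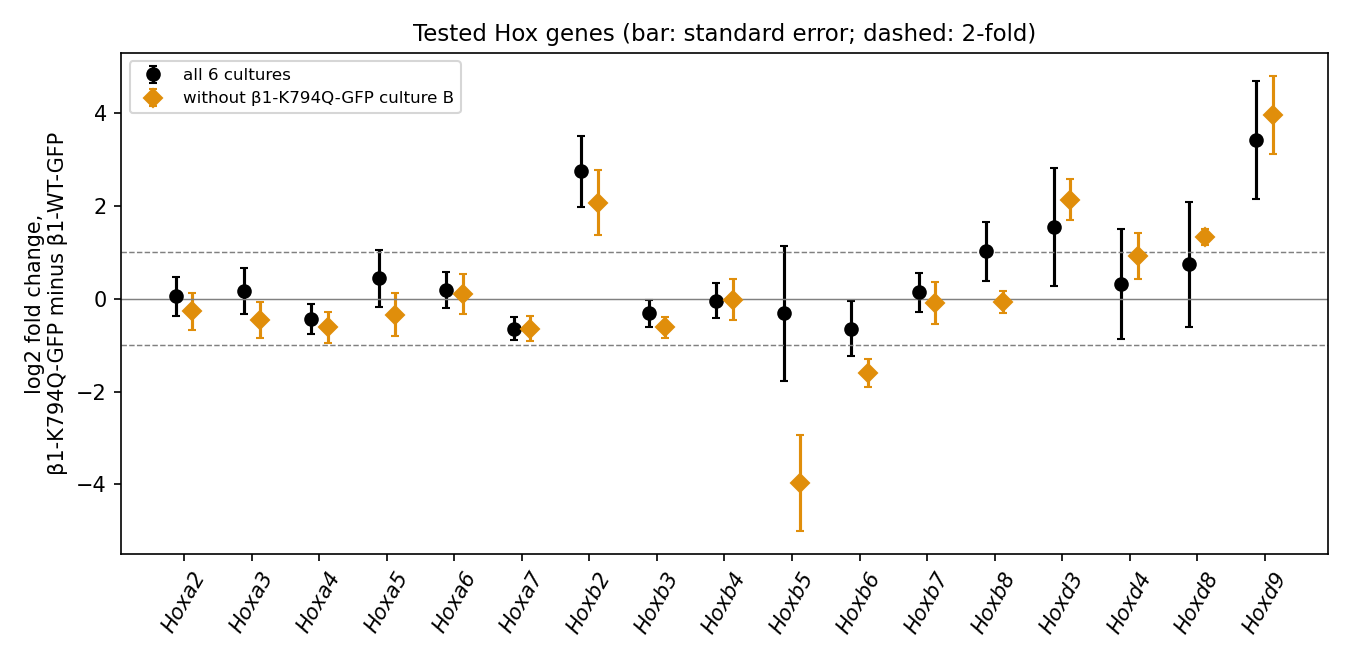
Log2 fold change (β1-K794Q-GFP minus β1-WT-GFP) of 17 tested Hox genes with its standard error, for all 6 cultures (black) and without β1-K794Q-GFP culture B (orange), with dashed lines at a 2-fold difference. Hoxb2, Hoxd3 and Hoxd9 lie above 2-fold in both fits, and Hoxb5 moves from −0.31 to −3.97.

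Genes that act with or on the clusters were examined by lists. The TALE cofactors (6 tested), Polycomb genes (31), Trithorax and H3K27 demethylase genes (15), genes of the retinoic acid pathway (7), upstream and non-clustered homeobox genes (2), genes flanking the clusters (17) and other transcripts of the clusters (2) each had 0 calls in edgeR and 0 in DESeq2. At an unadjusted p of at most 0.05 in edgeR, 1 of 6 TALE, 3 of 31 Polycomb, 1 of 17 flanking genes and 1 of 2 other cluster transcripts passed, and 0 of the remaining lists, against 10.2% of all tested genes. Among the TALE genes, Meis1 was at 15.0, 14.3 and 23.6 CPM in β1-K794Q-GFP cells (cultures A, B, C) and at 43.9, 32.7 and 25.8 CPM in β1-WT-GFP cultures, a log2 change of −0.95 ± 0.30 (SE, edgeR adjusted p = 0.337). Among the Polycomb genes, Rnf2, which encodes a ubiquitin ligase of histone H2A, had a log2 fold change of −0.68 (edgeR adjusted p = 0.247).

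Of the Trithorax genes, Kmt2d (named Mll2 in the table) had the smallest p, with a log2 fold change of 0.93 (edgeR adjusted p = 0.492). Rarg, a retinoic acid receptor, had a log2 fold change of 0.47 (edgeR adjusted p = 0.567), and Gdf11, a ligand that acts on posterior Hox genes in the embryo, was at 18.0, 1.68 and 18.1 CPM in the mutant and at 5.16, 4.30 and 7.66 CPM in β1-WT-GFP cultures, with the low value again in culture B (log2 fold change 1.14, edgeR adjusted p = 0.743). Of the genes flanking the clusters, Calcoco1 beside HoxC had a log2 fold change of −0.63 (edgeR adjusted p = 0.390). Genes beside HoxD varied less than HoxD itself among the mutant cultures: Mtx2 was at 26.8, 21.4 and 31.2 CPM and Lnpk (named Lnp in the table) at 27.5, 20.5 and 40.2 CPM in β1-K794Q-GFP cells (cultures A, B, C), where HoxD ran from 1.09 to 86.5 CPM. Of the endothelial markers, 1 was called, Ets1, higher with a log2 fold change of 1.34 (edgeR adjusted p = 0.139), and of the mesenchymal markers 1, Prrx1, lower with −10.94 (edgeR adjusted p = 0.0198). Of the blood cell markers, 1 was tested, Cd68, with a log2 fold change of 0.02 (edgeR adjusted p = 0.993).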

How the data were processed

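RNA of 3 β1-WT-GFP and 3 β1-K794Q-GFP cultures was sequenced by the authors, and the deposited values are raw counts, 1 row per mouse symbol. The submitters' processing notes name bcl2fastq 2.20.0, STAR 2.7.4a, HTSeq 0.9.1, edgeR 3.38.4 and the build mm10, without roles, and the strand setting and annotation of the counting are not given in the sources used here. The study ran the samples in 2 sequencing runs. Every per-sample column was used, and the single values of 1 tested Hox gene and 1 TALE cofactor are not reported here, although both enter the counts and sums.

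In R 4.3.3, edgeR 4.0.16 was run on the counts of all genes with the test (quasi-likelihood F, two-sided, no covariate) and thresholds of the study's methods, after a filter (filterByExpr) and TMM scaling chosen here, with DESeq2 1.42.0 as an alternative. Adjusted p values are Benjamini-Hochberg over all tested genes. With 3 against 3 cultures, an exact permutation test cannot give a p below 0.1, so only the overlap of the groups is given. Counts were also simulated with a log2 change of 3 in 200 genes, of which 199 were among the 11755 genes tested. At both thresholds 100% of these were recovered, and 612 of the unchanged genes passed too, where 603 genes were called in the data. The simulation gave every gene the same dispersion (0.186). Its recovery therefore does not carry over to genes with a wider spread between cultures, such as Hoxd9.

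The members and lists were chosen with earlier results of these data known. Values per culture are given for Hox genes that were called, did not overlap between groups, led their cluster in level, or changed call when 1 culture was left out. Hoxa3, Hoxb8, Hoxd10, Mira, Cldn5, Cdh5, Flt1, Sox17, Gdf11, Mtx2 and Lnpk were added after values were seen. Of each other list, called members or the member with the smallest p are named. The alternatives were RLE normalization, no filter, at least 10 counts in every culture, DESeq2, the likelihood ratio test, a replicate block and leaving out each culture.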

Additional observations from a re-analysis of the deposited data

How the results depend on the processing

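Of 17 tested Hox genes, 8 kept the sign of their log2 fold change in all 6 fits that left out 1 culture and 9 did not. The 2 called Hox genes became 4 without a filter on low counts (all higher), 0 at a minimum of 10 counts in every culture, where neither Hoxb2 nor Hoxd9 was tested (425 genes called in all), and 1 with the replicate block. RLE normalization, DESeq2 and the likelihood ratio test also called 2, where 605, 695 and 727 of all tested genes were called. Leaving out 1 culture gave 1 to 7 called, 1 to 5 higher and 0 to 2 lower, with the most without β1-K794Q-GFP culture B. All tested genes called numbered 916 without a filter, 571 with the block, and 501 to 992 when 1 culture was left out. The cause of these shifts was not tested.

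Same-letter cultures correlated in their deviations from the group mean at 0.0947 (A), 0.0548 (B) and 0.0952 (C), so the letters were not taken to pair the cultures, and β1-K794Q-GFP culture A correlated most with β1-WT-GFP culture B, at 0.0954. With the replicate block the log2 fold change turned sign for Hoxa2 (−0.0040), Hoxb4 (0.060), Hoxd4 (−0.35) and Hoxd8 (−0.14). When 1 culture was left out, it ran from −0.27 to 0.31 for Hoxa2, −0.45 to 0.51 for Hoxa3, −0.34 to 0.74 for Hoxa5, −0.0045 to 0.33 for Hoxa6, −0.34 to 0.29 for Hoxb4, −3.97 to 0.27 for Hoxb5, −0.13 to 0.42 for Hoxb7, −0.070 to 1.37 for Hoxb8 and −0.22 to 0.91 for Hoxd4.

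Of the lists, without a filter on low counts 1 TALE cofactor and 2 retinoic acid genes were called, and at a minimum of 10 counts 0 mesenchymal markers were. Leaving out 1 culture gave 0 to 2 TALE cofactors, 0 to 1 each of the Trithorax, retinoic acid, upstream homeobox, flanking and other cluster transcripts, and 1 to 3 endothelial markers. Genes at a few counts in some cultures, such as Hoxb2 and Hoxd10, carry counting error that limits how precisely their differences are known.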
